A study of Gallus gallus with 40 samples.

Results

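The 10 genes described here build, organise or crosslink extracellular matrix fibres, and were followed in the chorioallantoic membrane of the chicken embryo. They were taken by gene symbol from the deposited annotation: ELN, FBN1, FBN2, MFAP5, LOX, LOXL1, DCN, LUM, FMOD and TNC. These are 10 of 26152 gene models, and all 10 passed the filter on low values that kept 15880 genes for testing. The chorioallantoic membrane is the vascular membrane under the eggshell that serves gas exchange and calcium uptake. Its RNA was sequenced in 40 libraries from embryos of the Ross 308 broiler, a meat chicken, with 10 embryos in each of 4 groups: day 15 males, day 15 females, day 11 males and day 11 females. The labels give no treatment for any group, the embryos were sexed by a molecular test on neck tissue, and each library carries its own embryo number. The whole membrane was sequenced, so its epithelia, stroma, vessels and blood were measured together.

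Elastic fibres consist of a core of elastin laid down on a scaffold of fibrillin microfibrils. Lysyl oxidases then oxidise lysines in elastin and fibrillar collagens, which lets the fibres crosslink. Small leucine-rich proteoglycans bind collagen fibrils and govern their thickness and spacing, and tenascin-C is a matrix glycoprotein that modulates cell adhesion in developing and remodelling tissue.

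Levels are given as FPKM (fragments per kilobase of gene model, relative to library depth) after scaling between libraries. Whether reads or fragments were counted could not be settled. A comparison of genes per length rests on the gene length used, which is not known for members with several transcripts. The depth implied by the values was 28.3 to 49.2 M reads per library, with a median of 35.4 M. FMOD had the fewest reads behind its values, 69 to 854 per library with a median of 284. The gene CA2, a carbonic anhydrase typical of this membrane, stood at 262 to 1640 FPKM at day 15 and at 66.6 to 159 FPKM at day 11. The skeletal muscle genes MYF5, MYL1 and MYOG had medians below 0.1 FPKM over the 40 libraries, as did the cartilage genes ACAN and MATN1. Not all cartilage genes were that low, since COL2A1 had a median of 21.2 FPKM at day 15 and 55.8 FPKM at day 11.

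The 10 genes spanned a wide range of levels, and their order differed between the days. The order within a day depends on the gene length used, which is not known for ELN, FBN2, LOXL1, DCN and TNC. DCN was the highest at both days, with a mean of 1328 ± 213 FPKM at day 15 and 1212 ± 194 FPKM at day 11 (SD, n = 20 each). It ranked 45 among the 15880 tested genes at day 15 and 55 at day 11. LUM followed at 359.9 ± 52.6 FPKM at day 15 and 321.7 ± 55.1 FPKM at day 11. LOXL1 came next at day 15, below LUM in 20 of 20 libraries and above the fourth gene, MFAP5, in 20 of 20. At day 11 MFAP5 and LOXL1 could not be ordered, since MFAP5 was the higher of the pair in 8 of 20 libraries. MFAP5 and LOX at day 15 had overlapping values (MFAP5 above LOX in 12 of 20 libraries), as did TNC and FBN1 (TNC above in 9 of 20). At day 11 TNC lay below FBN1 in 20 of 20 libraries and beside FBN2, above which it stood in 10 of 20. FMOD had the lowest mean of the 10 at both days, 5.80 ± 1.13 FPKM at day 15 and 1.47 ± 0.41 FPKM at day 11. At day 15 its range overlapped that of FBN2, which was above FMOD in 15 of 20 libraries, while at day 11 FBN2 was above it in 20 of 20. Together the 10 genes held a median of 0.398% of summed FPKM in day 15 males and 0.334% in day 15 females, against 0.336% in day 11 males and 0.312% in day 11 females.

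**Figure D1:**
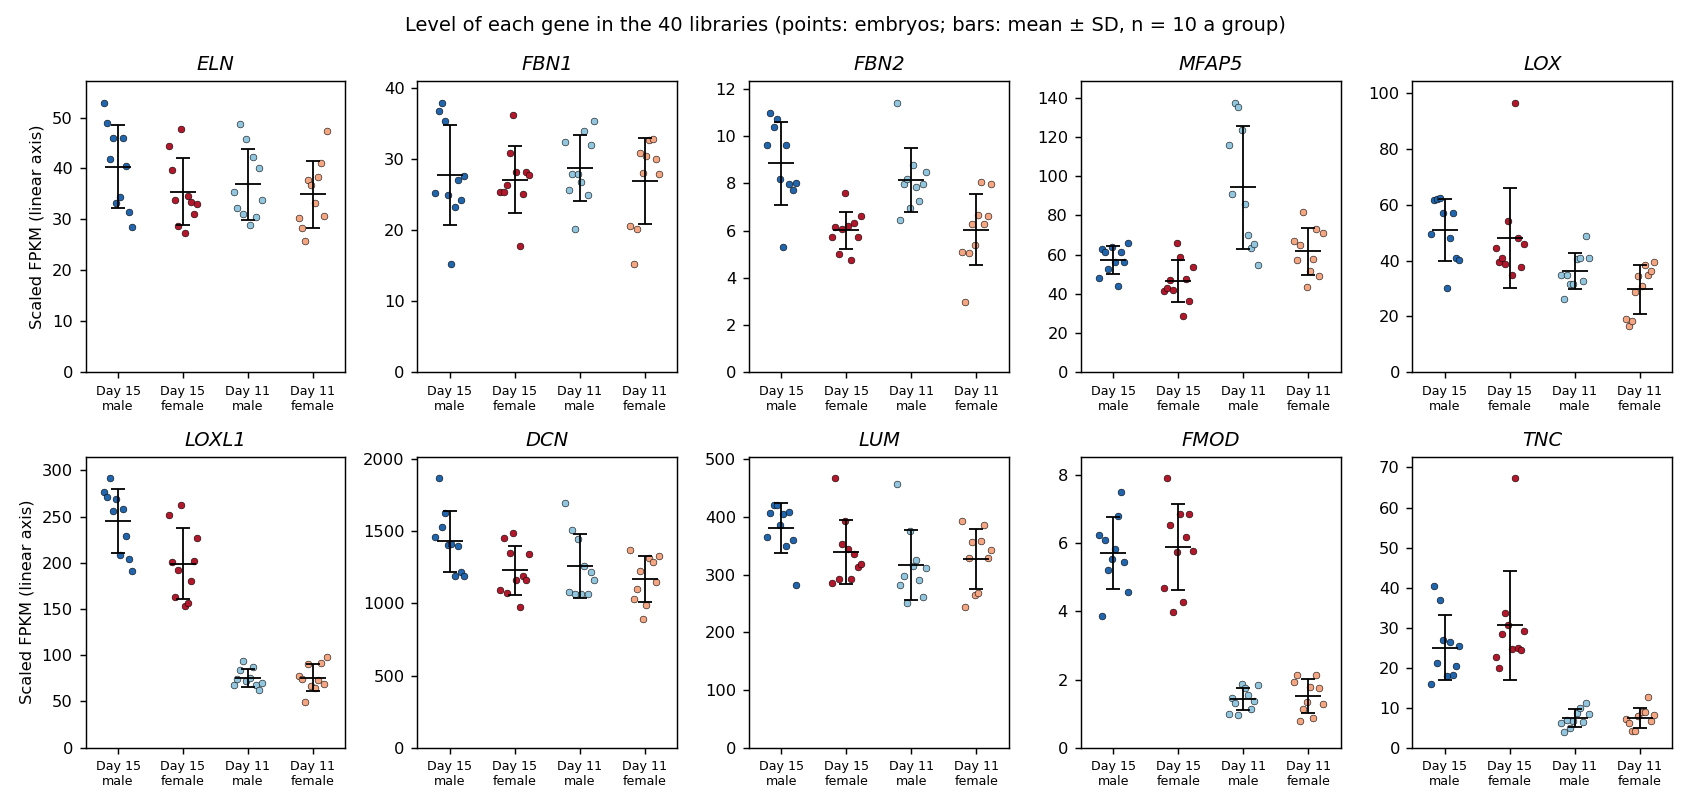
Level of each gene in the 40 libraries, in scaled FPKM on a linear axis that starts at 0. Each point is an embryo and the bars give the mean and SD of 10 embryos. LOXL1, FMOD and TNC at day 15 lie wholly above their day 11 values in both sexes, MFAP5 spreads up to 137.6 FPKM in day 11 males, and 1 day 15 female stands apart in LOX (96.7 FPKM) and TNC (67.3 FPKM).

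The first comparison asked how the membrane differs between day 15 and day 11 of incubation. FMOD, TNC and LOXL1 were 2.92-fold to 3.82-fold higher at day 15, LOX was 1.5-fold higher, LUM 1.12-fold higher and MFAP5 lower at 0.689 of its day 11 level. ELN, FBN1, FBN2 and DCN were not called. Thus 6 of the 10 genes differed by limma at an adjusted p below 0.05 (5 higher, 1 lower), where 60.1% of all tested genes did. In males 6 of the 10 were called, with a background of 47.7%, and in females 5 of the 10, with a background of 45.7%. The median log2 fold change of the 10 genes was 0.15, against 0.0052 over all tested genes. None of the 10 had a called interaction of sex and day, for which the background was 0.0252% (4 genes); 504 of all tested genes had an unadjusted interaction p below 0.05. Since whole membranes were sequenced, fewer cells of a type and less RNA per cell cannot be told apart in any of these differences.

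**Figure D2:**
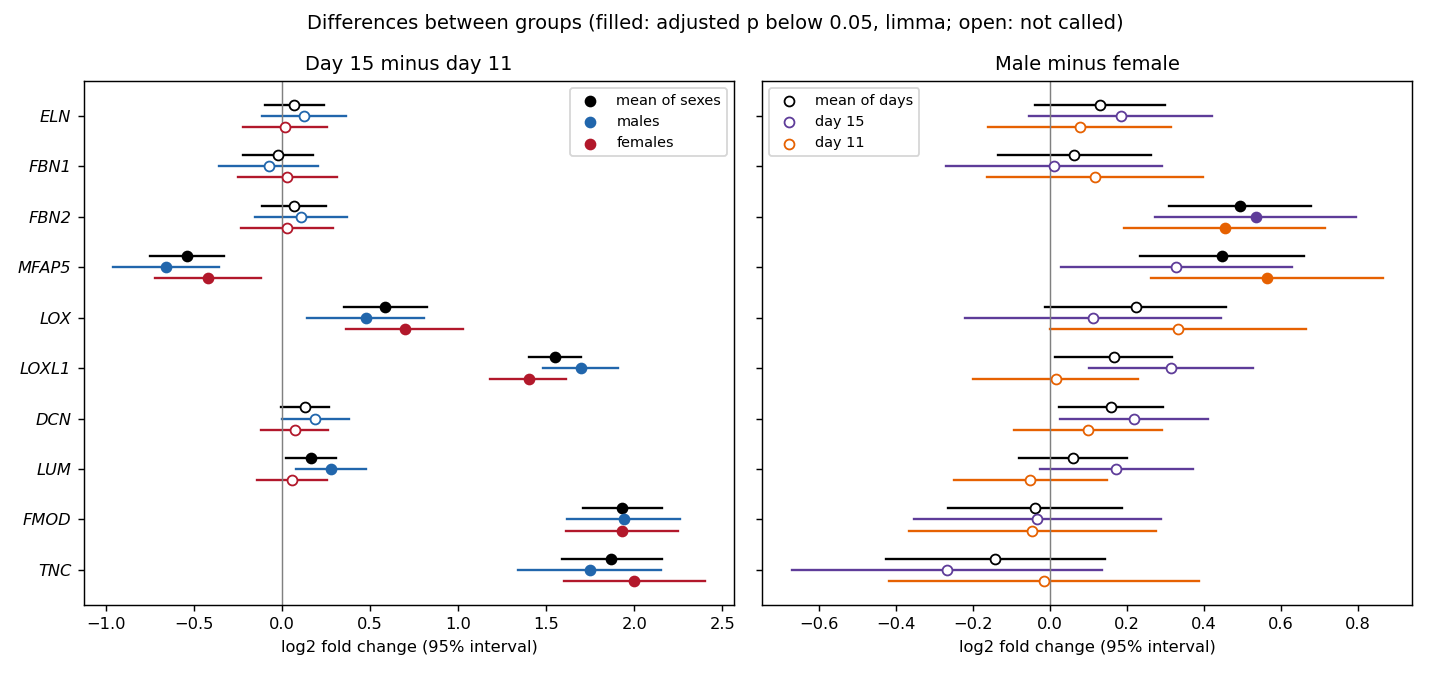
Log2 fold changes with 95% intervals for the 10 genes, day 15 minus day 11 on the left and male minus female on the right, each averaged and within a sex or a day. Filled points have an adjusted p below 0.05 by limma. FMOD, TNC and LOXL1 lie farthest to the right on the left side in both sexes, the lowest of them LOXL1 in females at 1.40, and FBN2 and MFAP5 hold the filled points on the right.

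Of the elastic core and its microfibril scaffold, MFAP5 was lower at day 15 and ELN, FBN1 and FBN2 were not called. ELN (ENSGALG00000032220, chromosome 19, 943341 to 962273, build GRCg6a) encodes tropoelastin, the soluble precursor of elastin. It had 28.4 to 52.9 FPKM in day 15 males (median 41.2) and 27.4 to 47.8 FPKM in day 15 females (median 33.7), against 28.98 to 48.8 FPKM in day 11 males (median 34.6) and 25.7 to 47.4 FPKM in day 11 females (median 35.0). The 4 groups overlapped almost wholly, and the log2 fold change was 0.07 with a 95% interval of -0.10 to 0.24. FBN1 (ENSGALG00000004960, chromosome 10, 10623539 to 10768837), the main fibrillin of microfibrils, had 15.2 to 37.96 FPKM at day 15 and 15.2 to 35.4 FPKM at day 11. Its log2 fold change was -0.02 with an interval of -0.22 to 0.18. FBN2 (ENSGALG00000014686, chromosome Z, 56968843 to 57129354), a fibrillin known in mammals for its place in fetal tissue, was at 4.75 to 11.0 FPKM at day 15 and 2.96 to 11.4 FPKM at day 11. The log2 fold change of FBN2 was 0.07 with an interval of -0.12 to 0.25. For FBN1 and FBN2 the sign turned under some of the settings tried, with no call under any of them. By FPKM FBN1 was above FBN2 in 20 of 20 libraries at day 15, though the gene length used for FBN2 is not known.

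MFAP5 (ENSGALG00000047320, chromosome 1, 75647640 to 75660701) encodes a small glycoprotein that sits on fibrillin microfibrils. It had 44.2 to 66.0 FPKM in day 15 males (median 58.8), against 54.9 to 137.6 FPKM in day 11 males (median 88.4). In females it had 28.6 to 66.0 FPKM at day 15 (median 44.98), against 43.4 to 81.9 FPKM at day 11 (median 61.3). All 10 day 15 males lay below the day 11 male median, though the ranges overlapped. The log2 fold change was -0.54 ± 0.11 (SE; adjusted p = 2.9e-05 by limma). The log2 ratio of MFAP5 to FBN1 within each library differed by -0.52 (two-sided permutation p = 0.00102, adjusted over 12 such tests 0.00245). As FBN1 hardly differed between the days, this mostly restates the fold change of MFAP5 and is no separate support. With only the 11 day 11 embryos numbered 22 to 48 the fold change of MFAP5 was -0.28 (adjusted p = 0.0174 by limma) and the difference in its ratio to FBN1 was -0.11 (permutation test, adjusted p = 0.584). With only the 9 numbered 2 to 20 these were -0.82 and -1.0, both called.

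RNA of both crosslinking enzyme genes among the 10 was higher at day 15, LOXL1 by more than LOX. LOXL1 (ENSGALG00000038458, chromosome 10, 2780867 to 2794265) encodes a lysyl oxidase that in mice is needed to maintain elastic fibres. It had 191 to 291 FPKM in day 15 males (median 257), against 62.8 to 93.7 FPKM in day 11 males (median 73.2). In females its values were 152.9 to 262 FPKM at day 15 (median 197) and 49.3 to 98.1 FPKM at day 11 (median 73.8). The lowest day 15 library was above the highest day 11 library, and the log2 fold change was 1.55 ± 0.07 (SE; adjusted p = 1.56e-20 by limma). Groups that did not overlap were found in 3 of the 10 genes in each sex, namely LOXL1, FMOD and TNC; over all tested genes this share was 11.0% in males and 8.95% in females.

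LOX (ENSGALG00000028063, chromosome Z, 81200691 to 81207932) encodes the founding member of the lysyl oxidase family. The annotation gives it the biotype of a pseudogene with a model of 1263 bases, so its level per length depends on that model. LOX had 30.3 to 62.4 FPKM in day 15 males (median 53.2), against 26.3 to 48.8 FPKM in day 11 males (median 34.7). In females it had 34.9 to 96.7 FPKM at day 15 (median 42.7), against 16.6 to 39.6 FPKM at day 11 (median 32.6). In each sex 6 of 10 day 15 libraries exceeded every day 11 library. The log2 fold change was 0.59 ± 0.12 (SE; adjusted p = 3.61e-05 by limma). It was 0.33 (adjusted p = 0.0168) with only the day 11 embryos numbered 22 to 48 and 0.92 (adjusted p = 9.35e-07) with only those numbered 2 to 20.

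**Figure D3:**
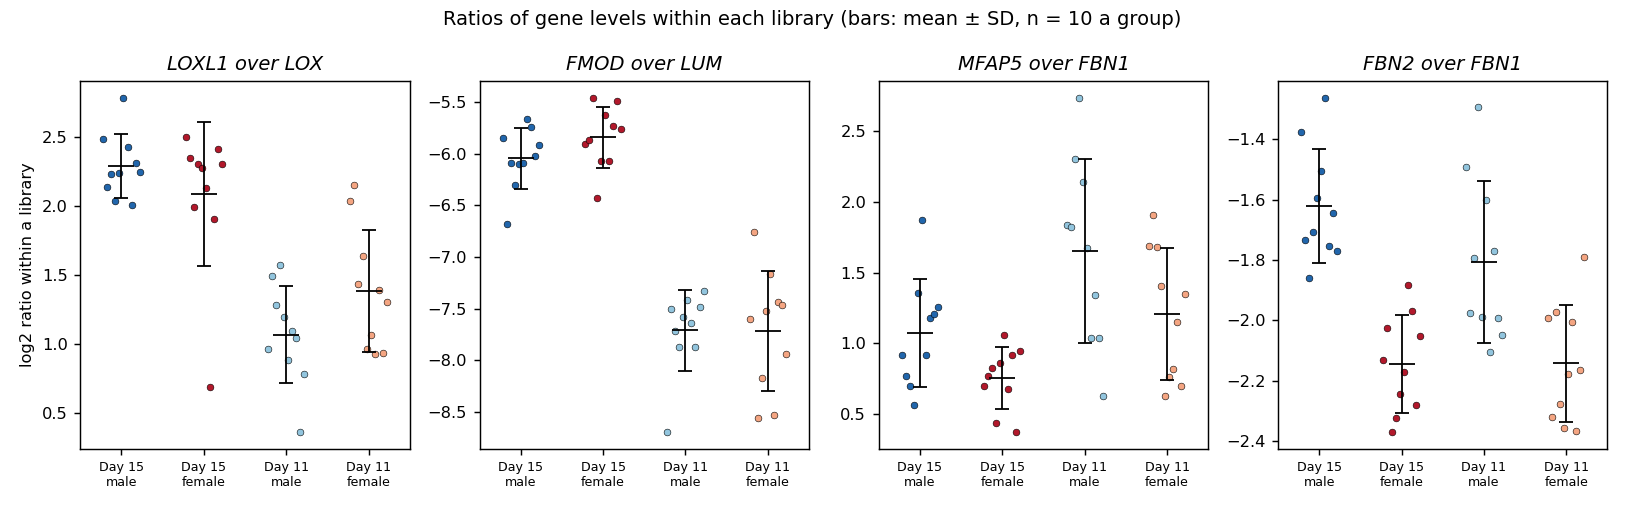
Log2 ratios of gene levels within each library for LOXL1 over LOX, FMOD over LUM, MFAP5 over FBN1 and FBN2 over FBN1. Points are embryos and bars give the mean and SD of 10 embryos in a group. FMOD over LUM separates day 15 from day 11 with no overlap, and FBN2 over FBN1 is higher in males at both days.

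The balance of the 2 oxidase genes differed between the days. The log2 ratio of LOXL1 to LOX within a library was 0.69 to 2.78 at day 15 (median 2.26) and 0.36 to 2.15 at day 11 (median 1.15). The difference was 0.96, with a permutation p of 1e-05, the smallest that 100000 resamples can give, and an adjusted p of 3e-05 over 12 tests. The lowest day 15 ratio belonged to replicate 83 of the females, which had the highest LOX; without it the difference was 1.04. It was 1.22 with only the day 11 embryos numbered 22 to 48 and 0.63 with only those numbered 2 to 20, both still called.

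Among the small leucine-rich proteoglycans FMOD was higher at day 15, LUM was higher by a small amount, and DCN was not called. FMOD (ENSGALG00000034067, chromosome 26, 5133300 to 5139900) encodes fibromodulin, which binds collagen I and takes part in fibril growth. It had 3.86 to 7.51 FPKM in day 15 males (median 5.68), against 0.968 to 1.86 FPKM in day 11 males (median 1.41). Females showed 3.995 to 7.91 FPKM at day 15 (median 5.98), against 0.772 to 2.15 FPKM at day 11 (median 1.55). No day 11 library reached the lowest day 15 value. The log2 fold change of FMOD was 1.93 ± 0.11 (SE; adjusted p = 3.64e-18 by limma), 1.94 in males and 1.93 in females. With a pseudocount of 1 FPKM in place of 0.1 it was 1.46, since FMOD is a gene of low level.

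LUM (ENSGALG00000011271, chromosome 1, 44018283 to 44031180) and DCN (ENSGALG00000011274, chromosome 1, 44050178 to 44202174) encode lumican and decorin, proteoglycans that coat collagen fibrils, and lie 18997 bp apart on the same strand. LUM had 283 to 421 FPKM in day 15 males (median 396) and 285 to 467 FPKM in day 15 females (median 326.5). Day 11 values were 250.4 to 456 FPKM in males (median 304) and 244 to 393 FPKM in females (median 335.5). Its log2 fold change was 0.17 ± 0.07 (SE; adjusted p = 0.0364 by limma). The call was lost with no scaling between libraries (adjusted p = 0.0926), with upper quartile scaling (0.0835) and with only the day 11 embryos numbered 2 to 20 (0.222). In males LUM was at 0.28 ± 0.10 (adjusted p = 0.018) and in females at 0.06 ± 0.10 (adjusted p = 0.676), and the difference between the sexes had an unadjusted interaction p of 0.116. The call in males was lost with only the day 11 embryos numbered 2 to 20 (0.22, adjusted p = 0.152).

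DCN had 1188 to 1866 FPKM in day 15 males and 974 to 1487 FPKM in day 15 females, against 1065 to 1697 FPKM in day 11 males and 894 to 1372 FPKM in day 11 females. Its log2 fold change of 0.13 had an interval of -0.0042 to 0.27 and an adjusted p of 0.0885 by limma. With only the day 11 embryos numbered 22 to 48 it was 0.19 and called (adjusted p = 0.0271), as it was in males alone (0.30, adjusted p = 0.0258). The log2 ratio of LUM to DCN was -2.20 to -1.63 at day 15 and -2.34 to -1.73 at day 11, a difference of 0.035 (permutation p = 0.443). The log2 ratio of FMOD to LUM was -6.68 to -5.46 at day 15 and -8.69 to -6.76 at day 11, with no overlap. Its difference was 1.77 (permutation p = 1e-05, adjusted 3e-05). FMOD over DCN differed by 1.80 with the same p-values. These differences mostly restate the fold change of FMOD.

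TNC (ENSGALG00000039990, chromosome 17, 3013995 to 3098173), the tenascin-C gene, was 3.66-fold higher at day 15. It had 16.0 to 40.3 FPKM in day 15 males (median 23.3), against 3.95 to 11.2 FPKM in day 11 males (median 6.84). In females it had 19.8 to 67.3 FPKM at day 15 (median 26.5), against 4.09 to 12.7 FPKM at day 11 (median 7.53). Every day 15 library lay above every day 11 library. The log2 fold change was 1.87 ± 0.14 (SE; adjusted p = 1e-14 by limma). TNC ranked 3500 of 15880 genes at day 15 and 9060 at day 11. Its coefficient of variation between embryos at day 15 was 32.6% in males and 44.3% in females, and 16.3% in females without replicate 83.

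Male and female embryos were compared next; in birds males carry 2 Z chromosomes and females 1. FBN2 and MFAP5 were higher in males, and no member was called higher in females. These are 2 of the 10 genes, where 4.84% of all tested genes were called. FBN2 and LOX are the members on chromosome Z. Of the 676 tested Z genes 65.4% were called higher in males, with a median log2 difference of 0.48, whereas 1.36% of the genes outside Z and W were called in either direction.

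FBN2 was at 5.29 to 11.0 FPKM in day 15 males (median 8.91), against 4.75 to 7.58 FPKM in day 15 females (median 6.11). At day 11 its values were 6.45 to 11.4 FPKM in males (median 7.97) and 2.96 to 8.07 FPKM in females (median 6.28). At day 15 9 of 10 males exceeded every female, and the remaining male was replicate 81. The male minus female difference was 0.49 ± 0.09 on the log2 scale (SE; adjusted p = 0.000113 by limma), close in size to the median of the Z genes. The log2 ratio of FBN2 to FBN1 within a library was higher in males by 0.43 (permutation p = 1e-05, adjusted 3e-05), which mostly restates the difference of FBN2. LOX, the other Z gene, differed by 0.22 ± 0.12 with an interval of -0.01 to 0.46 and was not called (adjusted p = 0.419).

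MFAP5 lies on chromosome 1 and differed between the sexes by 0.45 ± 0.11 on the log2 scale (SE; adjusted p = 0.00358 by limma), male minus female. At day 11 the difference was 0.56 ± 0.15 (adjusted p = 0.0165), with 6 of 10 males above every female. At day 15 it was 0.33 ± 0.15 and not called (adjusted p = 0.392), with 9 of 10 males above the female median. The log2 ratio of MFAP5 to FBN1, built on the same MFAP5 values, was higher in males by 0.38 (permutation p = 0.0103, adjusted 0.0206). It was 0.28 and not called with only the day 11 embryos numbered 22 to 48 (permutation test, adjusted p = 0.0629). With those embryos the averaged difference of MFAP5 itself was 0.29 and not called (adjusted p = 0.143 by limma). It was 0.58 with only those numbered 2 to 20 (adjusted p = 0.000183 by limma).

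At day 11 FBN2 and MFAP5 were called (2 of 10, background 3.48%), and at day 15 FBN2 was (1 of 10, background 3.5%), with a log2 difference of 0.53 ± 0.13 (SE; adjusted p = 0.00656 by limma). Within the day 11 embryos numbered 22 to 48 neither was called at day 11: FBN2 differed by 0.25 (adjusted p = 0.931) and MFAP5 by 0.25 (adjusted p = 1). In those numbered 2 to 20 the values were 0.77 for FBN2 (adjusted p = 0.0193) and 0.83 for MFAP5 (adjusted p = 0.00216). FBN2 at day 11 also lost its call with no scaling (adjusted p = 0.0592). LOXL1 was at 191 to 291 FPKM in day 15 males and 152.9 to 262 FPKM in day 15 females, a log2 difference of 0.31 ± 0.11 that was not called (adjusted p = 0.117). The remaining members had averaged sex differences of -0.14 to 0.22 on the log2 scale, with adjusted p-values of 0.249 to 0.927 by limma.

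The labels number the embryos, and at day 11 many genes follow that number, which the labels do not explain. Day 11 embryos carry numbers from 2 to 48 and day 15 embryos higher ones. Number and day cannot be told apart across the whole set. In a fit of the day 11 libraries with sex as a covariate, 4 of the 10 genes followed the number, where 32.6% of all tested genes did. LOX, TNC and FBN1 increased with it and MFAP5 decreased. At day 15 none of the 10 was called by limma and the background was 0.0%; 987 of all tested genes had an unadjusted p below 0.05 there, ELN among them (unadjusted p = 0.00198).

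LOX had 30.8 to 48.8 FPKM in the 11 embryos numbered 22 to 48 (median 38.5) and 16.6 to 34.7 FPKM in the 9 numbered 2 to 20 (median 28.9). In females LOX had 30.8 to 39.6 FPKM in the higher range and 16.6 to 28.9 FPKM in the lower, without overlap. In males LOX had 32.6 to 48.8 and 26.3 to 34.7 FPKM, which overlapped. Whether slopes differ between the sexes was not tested. Its slope was 0.19 ± 0.04 on the log2 scale per 10 numbers (SE; adjusted p = 0.000692 by limma). TNC had 6.39 to 12.7 FPKM in the higher range (median 8.63) and 3.95 to 7.17 FPKM in the lower (median 6.21), with a slope of 0.17 ± 0.06 per 10 numbers. FBN1 was at 25.0 to 35.4 FPKM in the higher range and 15.2 to 32.4 FPKM in the lower, with a slope of 0.12 ± 0.04. MFAP5 went the other way, with 43.4 to 85.8 FPKM in embryos 22 to 48 (median 63.5) and 57.1 to 137.6 FPKM in embryos 2 to 20 (median 90.95). In males MFAP5 had 54.9 to 85.8 FPKM in the higher range and 90.95 to 137.6 FPKM in the lower, without overlap. In females MFAP5 had 43.4 to 73.1 and 57.1 to 81.9 FPKM, which overlapped. Its slope was -0.14 ± 0.05 per 10 numbers (adjusted p = 0.0291) and lost its call with no scaling (adjusted p = 0.0654). The scaling factors also differed between these ranges. They were 0.921 to 1.001 in embryos 2 to 20 and 1.015 to 1.073 in embryos 22 to 48, without overlap. Summed FPKM was 583753 to 648087 in the lower range and 549190 to 569531 in the higher, again without overlap. With no scaling 3 of the 10 genes followed the number. The cause of the difference in scaling factors was not tested. The slopes of the other 6 genes lay between -0.02 and 0.08 per 10 numbers.

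The split touches the day comparison of LOX and MFAP5 within each sex. With only day 11 embryos 22 to 48, LOX was at 0.30 in males (adjusted p = 0.17) and 0.37 in females (adjusted p = 0.0672), and MFAP5 at -0.24 in males (adjusted p = 0.192) and -0.32 in females (adjusted p = 0.06), with no call by limma. FMOD, TNC and LOXL1 kept their calls under all 10 settings tried for the averaged comparison, with ranges of 1.46 to 2.01, 1.58 to 2.24 and 1.51 to 1.56 on the log2 scale. Some of these settings change only the estimated spread or the set of tested genes, and leave the fold change as it was.

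**Figure D4:**
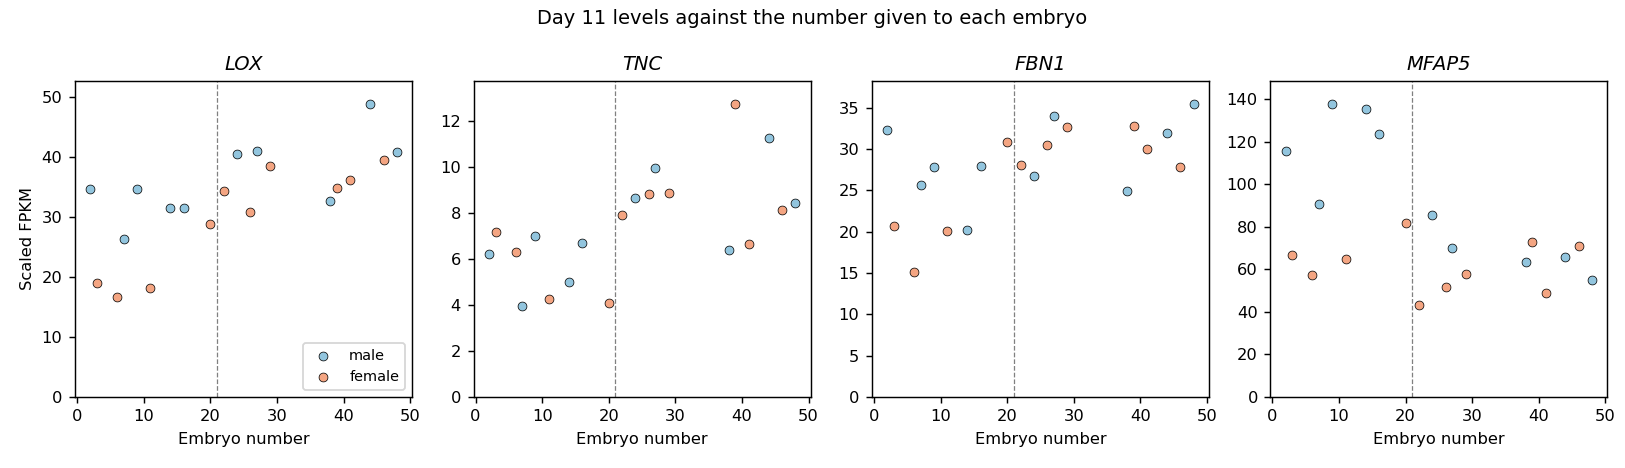
Scaled FPKM of LOX, TNC, FBN1 and MFAP5 in the 20 day 11 libraries against the number of the embryo, males and females in separate colours, with a dashed line between numbers 20 and 22. LOX, TNC and FBN1 are higher to the right of the line, and the 5 highest MFAP5 values, all from males, lie to its left.

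One library of the day 15 females, replicate 83, stood apart in several members. It had the highest LOX of its group, 96.7 FPKM against at most 54.1 in the other 9, and the highest TNC, 67.3 FPKM against at most 33.7. In the same library FBN1, FBN2, MFAP5 and DCN were the lowest of the group, with FBN1 at 17.8 FPKM against at least 25.1 in the others. Its summed level of 9 smooth muscle and pericyte markers was the highest of the group, 2405 FPKM against at most 1999, and its summed level of 8 endothelial markers was the lowest at 579 FPKM. Its leukocyte marker sum was also the highest (109.5 FPKM against at most 93.1), and its sums of erythroid markers (15300 FPKM), membrane function genes (925 FPKM) and skeletal muscle markers (0.297 FPKM) were the lowest of the group. The erythroid and membrane function sums share the gene SLC4A1, which had a day 15 median of 456 FPKM. The stromal fibroblast, epithelial and cartilage sums lay within the range of the other 9 libraries. The part of these marker levels in its member values was not tested. Without this library the averaged day difference was 1.81 for TNC, 0.53 for LOX and -0.50 for MFAP5, each still called.

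Marker genes of cell types were also counted between the days, where 60.1% of all tested genes were called (4811 higher and 4733 lower). Of 9 smooth muscle and pericyte genes 8 were higher and 1 lower at day 15, and their summed level was 1135 to 2057 FPKM in day 15 males and 1455 to 2405 FPKM in day 15 females, against 698 to 1150 FPKM in day 11 males and 546 to 1321 FPKM in day 11 females. Among them RGS5, a pericyte gene, rose by 1.55 ± 0.22 and ACTA2, the smooth muscle actin gene, by 0.85 ± 0.07 (log2, SE). KCNJ8, likewise a pericyte gene, the 1 lower gene of that list and named after its value was seen, was at -0.45 ± 0.07. PDGFRB, counted here among the fibroblast genes but also found in pericytes, was not called (0.21 ± 0.12, adjusted p = 0.124 by limma). Pericyte genes thus did not share a direction. Of 11 stromal fibroblast genes 8 were lower and 0 higher, HAND1 by the most with a log2 fold change of -0.99 ± 0.07. The summed level of the fibroblast genes, which include COL1A1, COL1A2 and COL3A1, was 4527 to 7988 FPKM in day 15 males and 4379 to 6958 FPKM in day 15 females, against 5674 to 8604 FPKM in day 11 males and 4612 to 7711 FPKM in day 11 females. Of 7 leukocyte genes 6 were lower and 0 higher, with a median log2 fold change of -1.44, and of 6 epithelial genes 5 were higher and 0 lower, with a median of 0.73. Of 5 membrane function genes 4 were higher and 0 lower (median 1.3), and of 8 endothelial genes 5 were higher and 2 lower (median 0.20). Of 5 erythroid genes 1 was higher and 2 lower, of 5 cartilage and tendon genes 1 was higher and 2 lower, and of 2 skeletal muscle genes 1 was lower. The 2 lower erythroid genes were the globin genes HBE (-4.57 ± 0.19) and HBZ (-4.07 ± 0.23). The far more abundant HBA1 and HBAD were not called (adjusted p = 0.356 and 0.128 by limma), so the 2 lower genes do not stand for the erythroid list as a whole. The erythroid and the cartilage and tendon lists, with 60.0% called in each, were at the share of all tested genes. The higher erythroid gene, SLC4A1, is also counted among the membrane function genes. The part of these shifts in the differences of the 10 genes was not tested.

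Between embryos of the same group the members followed several of these marker sums. Only group means were removed, so the trend with embryo number at day 11 remains in these values. TNC was the member that followed the smooth muscle markers most closely between embryos, with a Pearson r of 0.73 over 40 libraries after group means were removed (0.69 without replicate 83). LOX had an r of 0.51 with the same sum and the others -0.09 to 0.29. ACTA2 and TAGLN were the largest terms of this sum, with day 15 medians of 890 and 369 FPKM. The pericyte gene RGS5 had 24.3 FPKM, so these r values say little about pericyte markers. ELN, FBN1, FBN2, LOXL1 and DCN followed the fibroblast sum, with r from 0.60 to 0.67, as LOX (0.49), LUM (0.45), MFAP5 (0.39) and TNC (0.34) did to a lesser degree, while FMOD was at -0.15. By far the largest terms of that sum were COL1A1, COL1A2 and COL3A1, so these r values mainly describe collagen levels. At day 15 COL1A1 and COL1A2 had medians of 1890 and 1680 FPKM, against 90.9 FPKM for TCF21 and 63.3 FPKM for HAND1. LOX and TNC ran against the erythroid sum, at -0.62 and -0.55, and FBN2, FBN1 and LOX against the epithelial sum, at -0.53, -0.51 and -0.49. The cartilage and tendon sum gave r from -0.02 for FMOD to 0.51 for FBN1. Values were -0.43 to 0.37 with the endothelial sum, -0.33 to 0.32 with the leukocyte sum, -0.39 to 0.17 with the membrane function sum and -0.07 to 0.18 with the skeletal muscle sum. The ends of the endothelial range, TNC and MFAP5, moved to -0.21 and 0.23 without replicate 83. LOX moved from -0.32 to -0.02 with that sum, while LUM stayed at 0.35. With the epithelial sum LOX was at -0.645 without replicate 83.

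Embryos of the same group varied together in some pairs of members. With the mean of each group removed, DCN and LUM had a Pearson r of 0.79 over 40 libraries and a within-group r of 0.71 to 0.89 in the 4 groups. FBN1 and FBN2 had an r of 0.78 (0.34 to 0.88 within groups), LOX and TNC 0.67 (0.49 to 0.96), and ELN and LOXL1 0.62 (0.12 to 0.78). LOX and TNC had an r of 0.58 without replicate 83, and LOX and FBN1 0.77 without it and 0.50 with it. Within groups the r of LOX and FBN1 ranged from -0.615 to 0.906. Of the 45 pairs 6 were above 0.5 and 9 below 0, with a median of 0.24. FMOD stood apart from the rest, with r between -0.25 and 0.11 with every other member, and MFAP5 was negatively related to LOX (-0.27, or -0.14 without replicate 83) and TNC (-0.33, or -0.21 without it). These values describe libraries that share depth and tissue composition. They also keep the trend with embryo number at day 11, where LOX, TNC and FBN1 increase and MFAP5 decreases. The part of that trend in these r values was not tested.

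**Figure D5:**
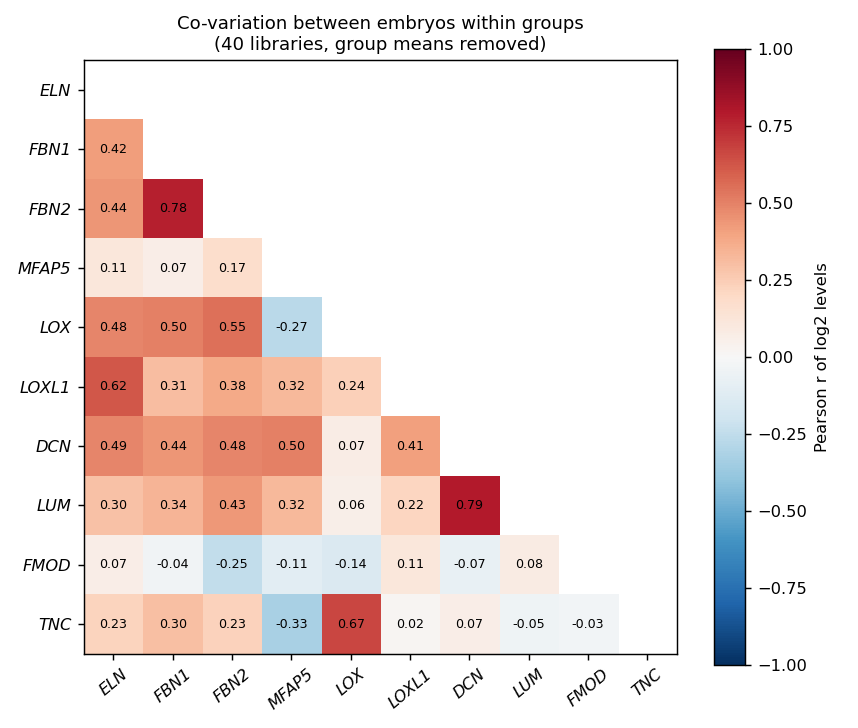
Pearson r of log2 levels between each pair of the 10 genes over 40 libraries, after the mean of each group was subtracted. The strongest pairs are DCN with LUM (0.79), FBN1 with FBN2 (0.78), LOX with TNC (0.67) and ELN with LOXL1 (0.62), and FMOD is near 0 with most genes.

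The genes most like each member were ranked by the same measure among 10407 genes with a symbol and a mean log2 level of at least 0. This measure keeps the trend with embryo number. DCN and LUM were each other's nearest gene. FBN2 was closest to NID1 (r = 0.94), which encodes the basement membrane protein nidogen, and next to EGFLAM (0.83) and the fibronectin gene FN1 (0.83). FBN1 was closest to SLIT3 (0.86), ZEB2 (0.86) and MPDZ (0.85). LOX was closest to ADAMTS12 (0.85), a metalloprotease gene, then to LOXL2 (0.82), another lysyl oxidase, and FBXO30 (0.81). TNC was closest to TPM4 (0.79), a tropomyosin, ACTA1 (0.78), an alpha-actin, and LOXL2 (0.78). For ELN these were JAM3 (0.73), ISLR (0.69) and COL5A1 (0.64), and for LOXL1 SLC27A3 (0.68), COL5A1 (0.68) and KIRREL1 (0.67). DCN had WISP1 (0.79) and RARRES1 (0.76) next to LUM, and LUM had HAPLN3 (0.70) and ATOH8 (0.67) next to DCN. MFAP5 was nearest to PMP22 (0.76), LASP1 (0.75) and TGFB2 (0.73). For FMOD the highest values were 0.51 with HELT, 0.49 with AREG and 0.48 with RAD9B (0.475, 0.503 and 0.446 without replicate 83). All values in this ranking were picked as the highest of 10407, which raises them, and FMOD had none above 0.51. Whether any of them exceeds what such a selection gives was not tested.

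Other genes of the same pathways were counted to place the 10. The lists were written from general knowledge, with the members left out, and counts are for day 15 against day 11, where 60.1% of all tested genes were called. Of 13 tested microfibril and elastic fibre genes 5 were higher, 5 lower and 3 not called, with a median log2 fold change of -0.12. With only the day 11 embryos numbered 22 to 48 the counts were 4 higher and 8 lower (median -0.30). With only those numbered 2 to 20 they were 5 higher and 4 lower (median 0.17). FBN3, a further fibrillin, had 1.61 to 7.47 FPKM at day 15 (median 5.70) and 10.4 to 22.2 FPKM at day 11 (median 15.2), without overlap and with a log2 fold change of -1.59 ± 0.14. Thus of the 3 fibrillin genes FBN3 was called and FBN1 and FBN2 were not. MFAP2, which like MFAP5 encodes a microfibril-associated glycoprotein, was also lower, by a log2 fold change of -1.04 ± 0.08. ADAMTSL5, which encodes a protein that binds fibrillin, rose by 1.56 ± 0.09 and EFEMP1, the fibulin-3 gene, by 0.95 ± 0.08.

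Of 9 further small leucine-rich proteoglycan genes 3 were higher, 4 lower and 2 not called; with the stricter filter, at least 1 FPKM in 20 libraries, 2 of 7 were lower. PODN, the podocan gene, rose by 1.1 ± 0.08 on the log2 scale and PRELP by 0.65 ± 0.08, while OGN, the osteoglycin gene, was at -0.86 ± 0.09 and OMD, the osteomodulin gene, at -0.94 ± 0.24. Among 15 large proteoglycan and hyaluronan genes 5 were higher, 5 lower and 5 not called, with NCAN (-2.87 ± 0.17), SPOCK3 (-1.13 ± 0.26), CD44 (-0.68 ± 0.16) and HAPLN3 (-0.64 ± 0.07) as the largest changes by log2 fold change among genes with a mean log2 level of at least 0. With only the day 11 embryos numbered 22 to 48 the counts were 3 higher and 7 lower (median -0.16). With only those numbered 2 to 20 they were 6 higher and 4 lower (median 0.21). Of 32 genes for glycosaminoglycan chain synthesis 9 were higher, 11 lower and 12 not called. The sulfotransferase genes UST and CHST1 were at -0.73 ± 0.08 and -0.62 ± 0.15, and XYLT1, which starts chains on core proteins, rose by 0.50 ± 0.16 and B3GNT7, a keratan sulfate enzyme, by 0.47 ± 0.08.

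Of 25 tested genes for other lysyl oxidases, lysyl hydroxylases and collagen processing 5 were higher at day 15, 12 lower and 8 not called (8 higher and 11 lower with only the day 11 embryos numbered 2 to 20). TLL1, a protease of the tolloid family that processes procollagen, had a log2 fold change of -1.15 ± 0.07 and P4HA3, a prolyl hydroxylase subunit, -1.08 ± 0.11. P3H2, a prolyl 3-hydroxylase, rose by 0.88 ± 0.12 and ADAMTS2, a procollagen N-proteinase, by 0.74 ± 0.13. Of the other oxidase genes LOXL2 was at 0.03 ± 0.07 and not called (adjusted p = 0.758 by limma) and LOXL3 at -0.18 ± 0.06 (adjusted p = 0.00587), a gene named after its value was seen. Among 6 fibrillar collagen genes, the substrates of these enzymes, 0 were higher and 4 lower. COL1A1 stood at 1390 to 2900 FPKM at day 15 and 1620 to 3030 FPKM at day 11, a log2 fold change of -0.32 ± 0.08. COL1A2 and COL5A2 each fell by 0.32 and COL2A1 by 1.12 on that scale. Of 7 fibril-associated and beaded collagen genes 4 were higher, 2 lower (1 with the stricter filter) and 1 not called. COL12A1 had 23.9 to 62.3 FPKM at day 15 (median 46.1) and 8.72 to 32.4 FPKM at day 11 (median 21.7) and rose by 1.15 ± 0.12; COL14A1 rose by 1.13 ± 0.10 and COL6A3 by 0.94 ± 0.09, and COL9A2 was at -0.72 ± 0.12.

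Matricellular genes other than TNC numbered 2 higher, 4 lower and 5 not called of 11 tested (1 higher with only the day 11 embryos numbered 22 to 48 or with the stricter filter). CYR61 rose by 0.55 ± 0.08 on the log2 scale, while POSTN, the periostin gene, was at -0.74 ± 0.18, VTN at -0.45 ± 0.13 and SMOC2 at -0.44 ± 0.10. Of 21 receptors for tenascin and other matrix proteins 11 were higher, 5 lower and 5 not called; with no scaling or upper quartile scaling 7 were higher and 5 lower, and with only the day 11 embryos numbered 22 to 48 5 were higher and 5 lower. The syndecan genes SDC3 and SDC4 rose by 1.09 ± 0.10 and 0.73 ± 0.05, and the integrin genes ITGA4 and ITGB6 were at -1.44 ± 0.10 and -0.54 ± 0.15. In TGF-beta signalling, a pathway known to induce many matrix genes, 5 of 15 genes were higher, 2 lower and 8 not called. These counts were 3 higher and 4 lower with only the day 11 embryos numbered 22 to 48, and 10 higher and 3 lower with only those numbered 2 to 20. TGFB3, which encodes a ligand, rose by 0.53 ± 0.06, the co-receptor gene ENG by 0.73 ± 0.06 and SKIL by 0.39 ± 0.09, and NRROS was at -0.80 ± 0.13.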

How the data were processed

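Processed values for 40 libraries were deposited as 1 table of 26152 gene models. The authors named it as raw counts, but the deposited values are normalised for gene length and depth and are called FPKM. Whether fragments or single reads (RPKM) were counted could not be settled, so "reads" stands for either. Among 15718 single-transcript genes, dividing each value by that of 1 read gave a whole number within 0.01 for 100% of values under 200 reads, and depth was read from these steps. The tools HISAT2 and HTSeq and the build GRCg6a come from the submitters' processing notes. Their versions and the strand setting are not given; no member shares exonic bases with a gene on the opposite strand. The gene length used for the 5 members with several transcripts is not known, which affects levels between genes and not folds.

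Libraries were scaled by trimmed, unweighted means of log ratios (30% and 5% trimmed) and taken as log2(scaled FPKM + 0.1), the scale of all fold changes. Genes reaching 0.5 FPKM in 10 or more libraries were fitted with limma 3.58.1 (R 4.3.3; trend, robust, a mean per group), with Benjamini-Hochberg adjustment over 15880 genes at 0.05. The test was checked on simulated data with independent genes, few changed genes and no trend with embryo number. That check gives no error rate for these data, where 60.1% of genes were called between the days. Within-library ratios were tested by two-sided permutation within sex or day (100000 resamples, Python 3.11.15). A ratio difference equals the fold change of the first gene minus that of the second, so it adds no independent evidence. Pairwise r is descriptive. The 10 members, the lists and the alternatives were chosen with earlier results of these data known. Named genes are the members, up to 4 called genes per list with the largest change (mean log2 level not below 0), and the 3 genes most like each member. Some others, such as large terms of the marker sums, were named after their values were seen. No reference sequence was used.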

Additional observations from a re-analysis of the deposited data

Results flagged for a closer look

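Dixon's test was made on log2 levels at the 95% level, where chance flags about 1 in 20, while values are printed in FPKM. In 6 of the 40 combinations of gene and group, 1 library lay far from the other 9 of its group by that test. The same library, replicate 83 of the day 15 females, accounts for 3 of them: LOX at 96.7 FPKM, where the next library had 54.1, TNC at 67.3 FPKM, where the next had 33.7, and FBN1 at 17.8 FPKM, where the next lowest had 25.1. FBN2 was low in replicate 81 of the day 15 males, at 5.29 FPKM with the next at 7.71 and a group median of 8.91. It was also low in replicate 6 of the day 11 females, at 2.96 FPKM with the next at 5.05 and a median of 6.28. LUM was low in replicate 100 of the day 15 males, at 283 FPKM with the next at 350 and a median of 396.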

How the results depend on the processing

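No paired analysis was possible because the groups share no embryo numbers. Of 100 recomputed fold changes for the averaged day comparison (10 genes, 10 settings) 93 kept their direction and their side of the threshold, as did 99 of 100 for the averaged sex comparison. Direction could not turn with no filter, the stricter filter or limma without trend and robust moderation, which leave a fold change as it was. For the averaged day comparison the same holds for the number as a covariate. These counts therefore overstate how many settings could have reversed a result. LUM lost its day call with no scaling (0.13), with upper quartile scaling (0.14) and with only day 11 embryos numbered 2 to 20 (0.13), and DCN gained one with only those numbered 22 to 48 (0.19); the cause was not tested. The sign of uncalled genes turned for FBN1 (0.18 with embryos 2 to 20 and 0.0102 without replicate 83 of the day 15 females) and FBN2 (-0.0357 with embryos 22 to 48). With embryos 22 to 48 the count of members called was 3 in females between days, 1 for the averaged sex difference, where MFAP5 was at 0.29, and 0 for the sex difference at day 11, which was 1 with no scaling. Genes with a called interaction numbered 0 with embryos 22 to 48, 8 with no filter, 8 with a pseudocount of 1 FPKM and 2 with the stricter filter.

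Within males LUM lost its call with embryos 2 to 20 (0.22) and DCN gained one with embryos 22 to 48 (0.30). Within sexes the sign of uncalled day differences turned in females for ELN (-0.11 with embryos 22 to 48, -0.0138 with no scaling, -0.00625 with upper quartile scaling), FBN1 (-0.18 with embryos 22 to 48, -0.00189 with no scaling) and FBN2 (-0.18 and -0.00397 in the same settings), and in males for FBN1 (0.022 with embryos 2 to 20). Uncalled sex differences at day 11 turned with embryos 22 to 48 for ELN (-0.11), LOXL1 (-0.0814), FMOD (0.0264) and TNC (0.0172), and for TNC also with embryos 2 to 20 (0.0916) and with the number as a covariate (0.00858); at day 15 FBN1 turned with upper quartile scaling (-0.00339) and without replicate 83 (-0.0545). Uncalled interactions turned with embryos 2 to 20 for ELN (-0.15) and FBN2 (-0.23), with embryos 22 to 48 for FBN1 (0.0059), MFAP5 (0.0813) and FMOD (-0.0599), and without replicate 83 for FMOD (-0.0344). Uncalled slopes per embryo number turned with no scaling for DCN (0.000642) and LUM (0.00142) at day 11, and without replicate 83 for TNC (-0.000784) at day 15. Alternatives for the ratios were chosen after seeing the data: MFAP5 over FBN1 lost its call with embryos 22 to 48 for day (-0.11) and sex (0.28), and none of the other 10 tests changed side or direction. The 20 libraries of day 11 split into 9 and 11, so those values rest on fewer embryos, and depth limits FMOD most, with 69 reads in its lowest library.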
